A study of Mus musculus with 24 samples.

Results

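The elements described here are stretches of mouse DNA that were accessible in each of 8 primary blood cell populations and were not called as accessible in the erythroid pair, the colony forming unit erythroblasts (CFUE) and the erythroblasts (ERY). They were chosen from ATAC-seq peak lists, in which a transposase cuts open chromatin and each peak marks a stretch cut more often than its surroundings. A population was called at a place when a peak of one library overlapped a peak of its other library by at least 1 bp, and called peaks of the 10 primary populations were merged wherever they overlapped. Of 203413 merged elements, 21588 were called in LSK, CMP, GMP, MEP, CFUMK, iMK, MON and NEU, and 4200 of these 21588 were called in neither CFUE nor ERY. That is 19.5% of the elements open in the 8 populations. Closed here means only that no reproducible peak was called.

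The series holds 24 libraries, 2 from each of 12 populations. The primary populations came from adult C57BL6 mice without a stated mutation or treatment. Bone marrow supplied 8 of them: LSK (Lin-, Sca1+, cKit+, the stem and multipotent compartment), common myeloid progenitors (CMP), granulocyte macrophage progenitors (GMP), megakaryocyte erythroid progenitors (MEP), the 2 erythroid populations, the megakaryocyte colony forming units (CFUMK) and megakaryocytes (iMK). Monocytes (MON) and neutrophils (NEU) came from peripheral blood. G1E is an immortal erythroid progenitor line without GATA1, and G1E-ER4+E2 is a single clone of it in which estradiol (E2) switches on a hybrid of GATA1 and the estrogen receptor. Both lines lack endogenous GATA1, the clone carries a transgene, and each stands for 1 line.

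Red cell formation is driven by GATA1, which turns on globin, heme and membrane genes and turns down progenitor genes such as Gata2, Kit and Spi1. As erythroblasts mature their chromatin condenses and most of the genome becomes inaccessible before the nucleus is expelled. PU.1 (the product of Spi1), RUNX, CEBP and AP-1 factors keep the regulatory elements of white blood cells open, and PU.1 and GATA1 are known to oppose each other.

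To show what such elements look like, 7 are printed, at genes with a known role in white blood cells and outside annotated exons. The stretches are forward strand sequence of mm10 (GRCm38), with coordinates counted from 1, and capitals mark a match on either strand to the motif of the RUNX family (AACCACA), of PU.1 (GAGGAAGT), of the CEBP family (TTGCNNAA), of AP-1 (TGANTCA) or of erythroid GATA factors (letters AGATAA). They were chosen for the gene's role and because the printed stretch holds such a match, so nothing is read from the matches themselves. The elements lie upstream of Runx3 (a RUNX factor of lymphoid and myeloid cells), Vav1 (a guanine nucleotide exchange factor of blood cells), Arhgap30 (a GTPase activating protein) and Cyba (a subunit of the phagocyte oxidase), in the first intron of Inpp5d (the phosphatase SHIP1) and of Dock2 (a Rac activator of migrating leukocytes), and upstream of an internal start of Dock8 (a Cdc42 activator), within intron 2 of its coding transcript.
Runx3 (chr4:135120177-135120317): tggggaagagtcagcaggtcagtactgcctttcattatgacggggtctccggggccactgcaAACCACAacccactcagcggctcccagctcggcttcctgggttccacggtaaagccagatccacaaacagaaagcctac
Vav1 (chr17:57278818-57279099): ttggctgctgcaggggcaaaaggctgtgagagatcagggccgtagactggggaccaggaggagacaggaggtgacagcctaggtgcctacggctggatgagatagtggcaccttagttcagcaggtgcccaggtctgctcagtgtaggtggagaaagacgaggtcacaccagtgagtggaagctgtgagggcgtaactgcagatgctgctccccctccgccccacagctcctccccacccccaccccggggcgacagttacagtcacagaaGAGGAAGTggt
Inpp5d (chr1:87626500-87626695): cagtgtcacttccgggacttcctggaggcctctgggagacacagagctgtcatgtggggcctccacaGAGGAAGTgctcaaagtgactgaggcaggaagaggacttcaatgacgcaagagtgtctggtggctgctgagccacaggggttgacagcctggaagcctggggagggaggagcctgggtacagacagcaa
Dock2 (chr11:34771287-34771586): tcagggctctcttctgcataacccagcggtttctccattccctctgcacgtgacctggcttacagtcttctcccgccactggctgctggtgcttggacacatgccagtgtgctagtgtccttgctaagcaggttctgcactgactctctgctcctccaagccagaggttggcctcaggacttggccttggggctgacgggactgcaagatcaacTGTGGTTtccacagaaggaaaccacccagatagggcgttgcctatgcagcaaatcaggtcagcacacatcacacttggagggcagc
Dock8 (chr19:25052254-25052549): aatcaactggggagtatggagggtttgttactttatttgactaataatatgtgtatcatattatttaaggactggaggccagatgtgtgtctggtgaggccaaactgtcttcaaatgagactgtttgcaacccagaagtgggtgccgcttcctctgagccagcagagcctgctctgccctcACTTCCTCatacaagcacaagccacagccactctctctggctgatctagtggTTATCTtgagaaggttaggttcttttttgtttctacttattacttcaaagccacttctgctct
Arhgap30 (chr1:171388793-171388953): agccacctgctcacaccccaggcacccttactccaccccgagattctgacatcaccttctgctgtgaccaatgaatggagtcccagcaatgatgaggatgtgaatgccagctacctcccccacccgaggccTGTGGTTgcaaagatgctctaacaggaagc
Cyba (chr8:122433026-122433325): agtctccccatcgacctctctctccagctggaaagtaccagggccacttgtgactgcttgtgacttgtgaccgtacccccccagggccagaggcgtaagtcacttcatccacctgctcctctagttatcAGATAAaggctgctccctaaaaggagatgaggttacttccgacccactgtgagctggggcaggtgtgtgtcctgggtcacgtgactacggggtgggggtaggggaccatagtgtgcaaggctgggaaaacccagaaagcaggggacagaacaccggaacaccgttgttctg

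The numbers of peaks ran from 84341 to 230877 in the primary libraries and from 52720 to 70306 in the cell lines. CFUE had 133674 and 99390 peaks and ERY 107690 and 97760, while NEU had 108650 and 84341 and MEP 165774 and 160409. The erythroid lists were therefore among the shorter ones, and no read depth was used, so that a site under the calling threshold and a site with no accessibility cannot be told apart. With each library cut to the same number of its strongest peaks 2440 elements qualified, and when a peak in either library of a population counted as a call 6802 did. Labels were checked on promoters of marker genes. Of 9 erythroid markers each CFUE and ERY library had 9 and each MEP library 8, and of 6 monocyte markers CFUE had 0 and ERY 0 and 1. The CFUMK and iMK libraries also carried the granulocyte markers (8 of 8 in CFUMK, 7 of 8 in iMK) and all 6 monocyte markers, and NEU carried all 6 B cell markers. The granulocyte markers numbered 8 and 8 in GMP, 7 and 6 in CMP, 7 and 3 in LSK, 3 and 2 in MEP and 5 and 6 in NEU. All 6 monocyte markers were also in both libraries of GMP and of CMP, with 6 and 3 in LSK and 2 and 2 in MEP. These 2 marker groups thus did not set CFUMK and iMK apart from CMP and GMP. Of 8 megakaryocyte markers CFUMK had 6 in each library and iMK 3 and 5, against 7 and 8 in CMP, 6 and 5 in GMP and 3 and 4 in MEP, so these markers did not set iMK apart. When CFUMK and iMK were left out of the rule 4264 elements qualified, and when NEU was left out 5764 did. Whether other cells were mixed into these libraries, and any part of them in the values below, was not tested beyond that. The numbers in the sample titles lie between 842 and 856 for the 7 bone marrow populations other than LSK, while LSK (987 and 1196), MON (1197 and 1198) and NEU (1199 and 1200) lie outside, and what the numbers stand for is not stated. Those of the 7 populations form a series from 842 to 848 and another from 850 to 856, each with 1 library of each population in the same order.

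The Runx3 element (chr4:135120031-135120622) scored highest in LSK replicate 2 and lowest in NEU replicate 2. A score percentile here is the rank of the best peak in an element among all peaks of that library, from 0 for the weakest to 100. Over the 16 libraries of the 8 open populations it was 64.9 at the lowest, 94.6 at the median and 99.8 at the highest. No CFUE, ERY or cell line library had a peak there. In such bulk libraries fewer cells with the element open and less opening per cell cannot be told apart. At Vav1 (chr17:57278734-57279201) the lowest, median and highest were 69.9, 94.5 and 96.5, and both MEP libraries (73.3 and 69.9) lay below the other 14. One CFUE library had a peak of percentile 41.8, and the lines had 81.2 and 85.3 in G1E and 76.2 and 71.5 in G1E-ER4+E2. In the first intron of Inpp5d (chr1:87626500-87626695, intron 1 of 5 of its 7 coding transcripts) the values were 72.9, 97.2 and 98.7, with MEP again lowest at 73.0 and 72.9. No erythroid library had a peak there, although G1E (94.7 and 93.1) and G1E-ER4+E2 (83.6 and 91.6) did. Arhgap30 (chr1:171388793-171389024) ran from 90.2 in MEP to 99.8 around a median of 98.9 and was called in G1E (44.4 and 69.0) and in neither library of G1E-ER4+E2. Dock2 (chr11:34771263-34771611) ran from 74.99 in NEU replicate 1 to 94.9, with a median of 89.7, and Dock8 (chr19:25052254-25052549) from 43.8 in MEP replicate 1 to 96.4, with a median of 94.4. Both had no peak in any erythroid or cell line library. Cyba (chr8:122432860-122433491) lay between 77.3 and 91.9 (median 82.0), without an erythroid peak and with weaker peaks in all 4 cell line libraries, from 21.6 to 57.1.

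The rule itself used the CFUE and ERY calls, so the values there are only a description. Of the 4200 elements, 2523 (60.1%) had no peak in any of the 4 erythroid libraries, 1163 (27.7%) had a peak in 1 of them, 458 (10.9%) in 2 and 56 (1.33%) in 3 or 4. Peaks fell on 18.5% and 9.76% of the elements in the CFUE libraries and on 15.0% and 10.3% in the ERY libraries, and where present they were weak, with median percentiles of 37.1 and 23.9 in CFUE and 29.6 and 22.2 in ERY. In a few cases both libraries had a peak that did not overlap the other one, 48 elements in CFUE and 44 in ERY. The 1677 elements just inside the rule, with at least 1 erythroid peak, had median percentiles of 34.1 in CFUE and 24.7 in ERY. The 1599 just outside, called in 1 of the 2 populations (610 in CFUE and 989 in ERY), had 45.3 and 41.5, and the 15789 called in both had 87.5 and 86.3. The boundary thus runs through a range of weak peaks, and the elements called in both populations lie well above it. On the other side of the rule, 7847 elements were called in 7 of the 8 populations and in neither erythroid one, and in 4686 of them the missing population was MEP, ahead of NEU (1544), MON (1172) and LSK (333).

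Position relative to genes was not part of the rule. Within 1 kb of an annotated transcript start lay 1383 of the elements (32.9%), another 1376 (32.8%) lay in introns, 1292 (30.8%) between genes and 149 (3.55%) in exons. Elements called in all 10 primary populations lay within 1 kb of a start in 69.8%, and the 1472 elements closed only in MON and NEU, chosen in the same way, in 45.8%. Read from the side of the open elements, 10.7% of the 12919 within 1 kb of a start were called in neither erythroid population, against 32.5% of the 8669 farther away. The share was larger with distance, from 8.82% (534 of 6055) within 100 bp of a start to 26.9% (841 of 3132) at 1 to 5 kb and 43.4% (755 of 1740) at 20 to 100 kb. Beyond 100 kb it was 48.8%, from 21 of 43 elements, with a 95% Wilson interval of 34.6 to 63.2 that overlaps the class before it. Such intervals cover counting error only, and elements are not replicates of a condition. Their median width was 385 bp, against 425 bp in the elements called in all 10, and they covered 1947 kb in all. By chromosome the share closed ran from 13.7% on chromosome 11 to 24.4% on chromosome 13, leaving aside chromosome Y with 0 of 4 elements.

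**Figure D1:**
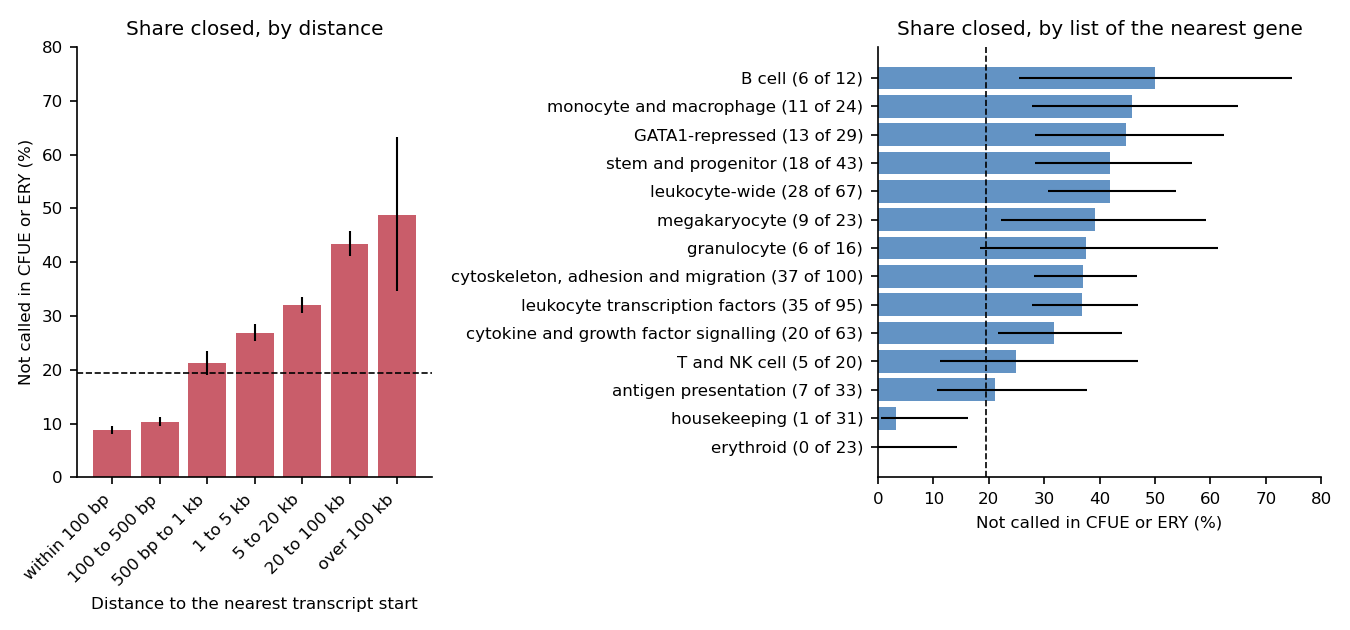
Bars give the percent of elements open in the 8 populations that were not called in CFUE or ERY, by distance to the nearest transcript start (left) and by the list that holds the nearest gene (right), with lines for 95% Wilson intervals and a dashed line at 19.5% for all of them. The share runs from 8.82% within 100 bp to 43.4% at 20 to 100 kb, and is 0 of 23 for erythroid genes.

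In the 8 populations where they were open, the elements were strong without being the strongest. Their median percentile was 88.4 and 86.8 in the 2 libraries of CMP, 87.3 and 82.9 in GMP, 85.5 and 84.8 in CFUMK, 84.0 and 86.0 in iMK and 85.9 and 79.8 in LSK. The libraries of CMP lay above those of CFUMK and iMK, and GMP, CFUMK, iMK and LSK overlapped. It was lower on average in MON (80.2 and 76.7) and NEU (78.4 and 66.6), and lowest in MEP (66.3 and 65.0). Elements called in all 10 populations had higher medians in each type, from 88.0 and 84.0 in NEU to 93.9 and 94.0 in CFUMK. The difference was -10.6 points on average over the 8 types, below 0 in 8 of 8, from -5.11 in CMP to -24.9 in MEP. It is given as a description, since both sets were chosen by their calls in these libraries. The spread of single elements was wide in MEP and in NEU replicate 2, with quartiles of 48.7 and 79.4 in MEP replicate 1, against 80.3 and 94.0 in CMP replicate 1.

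MEP, the population that gives rise to both the erythroid and the megakaryocytic line, stood apart at these elements. It was the lowest of the 8 types at 1885 of them (44.9%), against 2439 (15.4%) of the elements called in all 10, while NEU was lowest at 27.7% against 42.4%. The MEP median lay 16.7 points below the mean of the other 7 types, a description added after the values had been seen. Its peak numbers, 165774 and 160409, were within the range of the other types. MEP was below CMP, GMP, CFUMK and iMK in both series of title numbers, with 66.3 against 84.0 to 88.4 in the first and 65.0 against 82.9 to 86.8 in the other. Set against the elements closed only in MON and NEU, which are also open in the 6 bone marrow types other than CFUE and ERY, the elements scored 17.4 points higher in LSK, 10.2 in CMP, 22.6 in GMP, 5.46 in CFUMK and 26.0 in iMK. In MEP they scored lower, by -13.6 points. The mean over the 6 types was 11.3 points, above 0 in 5 of 6, and did not pass (exact sign-flip permutation test, two-sided, p = 0.125, where the smallest possible is 0.0312). Single libraries of MEP gave -14.1 and -13.1, and the 10 libraries of the other types between 4.97 and 26.5, so the groups did not overlap. By rule the elements closed only in MON and NEU were called in CFUE and ERY, and the elements described here were not. The comparison is therefore only a description of sets chosen to differ in the erythroid calls.

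Elements within 1 kb of a start scored 2.37 points higher than the distal ones on average, above 0 in 7 of 8 types (exact sign-flip permutation test, two-sided, p = 0.0234). Position was not part of the rule, but both kinds of elements were chosen by their calls in these libraries. The difference was not computed for other sets of elements, so it cannot be called particular to these. MEP had the widest difference (8.56 points) and NEU one of -0.541. The difference stayed past the threshold under most settings tried, with values of 2.57 to 3.58 for other overlaps, score minimums and peak numbers, for a peak in either replicate and without NEU. It was lost under others. It was -0.295 (exact p = 0.766) with the mean instead of the best score of an element, and 2.59 (exact p = 0.0938) with CFUMK and iMK left out. Without MEP replicate 1 it was 2.11 (exact p = 0.0547), without CFUE replicate 2 1.88 (exact p = 0.0547) and without ERY replicate 2 1.94 (exact p = 0.0781).

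Sequence was read as 15 consensus motifs on both strands in the central 200 bp of each element, and shares are given for elements over 1 kb from a start. Besides the 5 motifs above, these were ETS (CCGGAAGT), KLF/SP (CCNCNCCC), E-box (CAGNTG), IRF (GAANNGAAA), ETS-IRF (GGAANNGAA), STAT (TTCNNNGAA), GFI1 (AATCACNG), NRF1 (GCGCNTGCG), YY1 (AAGATGGCG) and the CTCF consensus. IRF and ETS-IRF can share bases, and so can PU.1 and ETS-IRF. A match is a string of letters and not a measured binding site. The PU.1 motif was in 226 of the 2817 distal elements (8.02%), against 1.91% of those called in all 10 populations and 1.754% of those closed only in MON and NEU. The RUNX motif was in 10.7%, against 4.68% and 5.51%. Over all 156632 distal merged elements these motifs were in 7.31% and 9.63%, so the elements resembled the whole collection in these 2 motifs, and it was the broadly open ones that held few. PU.1 or RUNX was in 499 (17.7%), against 6.55% and 7.14%, and both together in 29 elements, against 2 of those called in all 10.

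Other white cell motifs differed less. AP-1 was in 9.94% of the distal elements, 8.40% of those closed only in MON and NEU, 5.84% of those called in all 10 and 9.17% of all merged elements, and CEBP in 9.83%, 8.15%, 7.58% and 12.1%. GATA, the motif of the erythroid regulator, was in 10.05%, 17.2%, 7.25% and 15.04%, so it was less frequent here than in elements closed in MON and NEU. CTCF, a factor of domain borders, was in 7.88%, 14.4%, 21.5% and 3.41%, so it was less frequent here than in both other sets and more frequent than in the whole collection. KLF/SP (24.99% against 21.45% of all merged elements), E-box (48.1% and 46.3%), STAT (5.50% and 5.45%), IRF (6.60% and 7.80%), ETS-IRF (7.31% and 8.22%) and GFI1 (2.06% and 1.96%) lay close to the whole collection. ETS (1.10% and 0.452%), NRF1 (0.745% and 0.238%) and YY1 (0.355% and 0.169%) were rare. Within 1 kb of a start, PU.1 was in 4.41% and RUNX in 5.93% of the elements, against 1.79% and 2.39% of those called in all 10, while NRF1 (3.18% against 8.09%) and YY1 (0.145% against 2.00%) were less frequent. Over all 46781 merged elements within 1 kb of a start these shares were 3.55% for PU.1, 4.71% for RUNX, 3.01% for NRF1 and 0.680% for YY1, so for NRF1 the elements lay near the whole collection and those called in all 10 above it. Those promoter elements had 6 or more CpG dinucleotides in the window in 66.3%, against 88.9% of those called in all 10 and 57.2% of all merged ones.

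Turned around, 226 of the 349 distal open elements with a PU.1 motif (64.8%, 95% Wilson interval 59.6 to 69.6) were called in neither CFUE nor ERY, against 31.1% of those without one and 32.5% of all. The share was 51.1% (302 of 591) with a RUNX motif, 44.3% with AP-1, 39.0% with GATA and 38.1% with CEBP, against 31.1% to 32.0% without the motif. With CTCF it was 14.9% (222 of 1486), against 36.1% without.

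**Figure D2:**
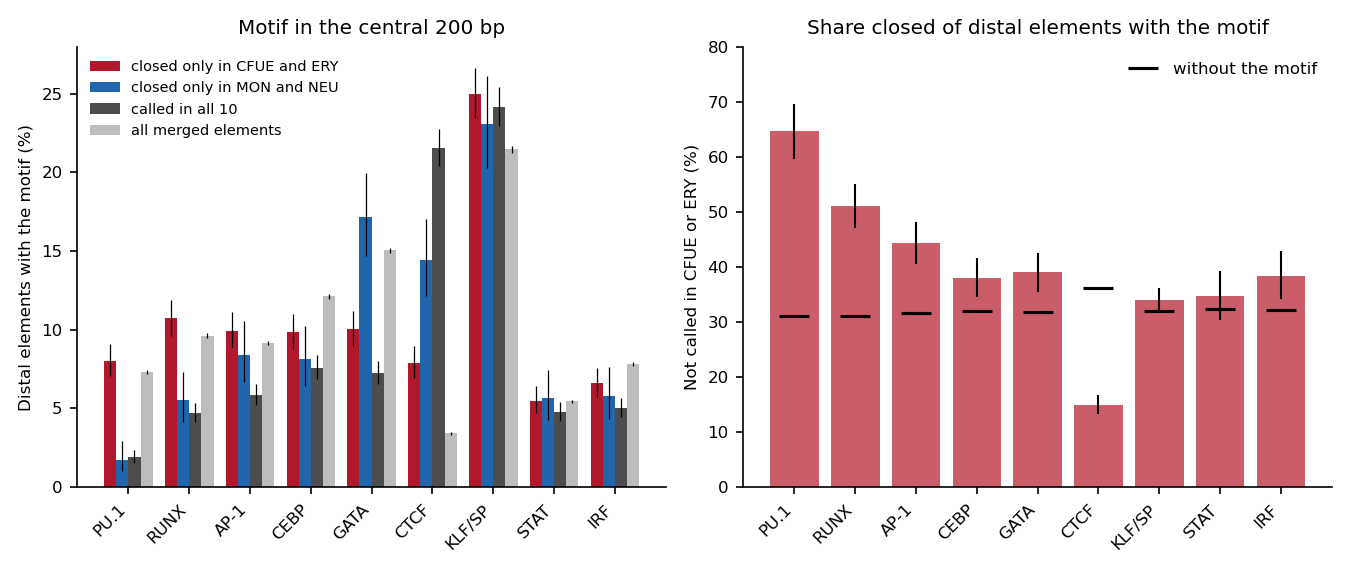
Left, the percent of elements over 1 kb from a start that hold each motif in the central 200 bp, for 4 sets of elements. Right, the percent of open distal elements with the motif that were not called in CFUE or ERY, with black marks for elements without it; lines are 95% Wilson intervals, and PU.1 (64.8%) and CTCF (14.9%) lie farthest from their marks.

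The motifs also divided the elements by how strongly they scored in each population. Distal elements with a PU.1 motif scored higher than those without in 7 of the 8 types, by 9.23 points in MON, 7.58 in LSK, 7.37 in NEU, 6.67 in GMP, 6.21 in iMK, 5.34 in CMP and 4.03 in CFUMK. In MEP they scored lower, by -7.94 points (medians of 56.2 and 54.9 in its libraries, against 64.1 and 62.9). RUNX showed the same division, with -6.22 in MEP and 3.47 to 7.41 elsewhere, and so did AP-1, with -4.25 in MEP and 1.15 to 6.18 elsewhere. The CTCF elements did the reverse, with 2.54 in MEP and values from -5.90 in NEU to -17.1 in GMP elsewhere. GATA elements differed little, between -2.11 and 2.03. These differences were not tested.

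The cell lines took no part in the rule. In G1E 1038 of the elements (24.7%) were called, against 12.7% of all merged elements, and in G1E-ER4+E2 1109 (26.4%), against 15.6%. Elements called in all 10 primary populations were called in 69.6% and 82.1%, and those closed only in MON and NEU in 37.5% and 56.0%. By library, peaks were on 27.0% and 31.0% of the elements in G1E and on 29.7% and 32.8% in G1E-ER4+E2, so the lines overlapped. The means were 29.0% ± 2.85 and 31.3% ± 2.17 (SD, n = 2), a difference of 2.29 points (exact permutation test, two-sided, p = 0.667, where 2 against 2 cannot go below 0.333). Fewer of these elements than of those closed only in MON and NEU had a peak in each of the 4 libraries, by -22.8 points on average and between -30.7 and -14.7 (p = 0.125 in a two-sided exact sign-flip permutation test, as small as 4 libraries allow). The lines are erythroid, and by rule the latter set was called in CFUE and ERY and these elements were not. The difference is therefore only a description. The totals of the lines were alike but the elements behind them were in part different. Of the elements called in G1E 27.6% were not called in G1E-ER4+E2, and of those not called in G1E 11.3% were called in G1E-ER4+E2. For elements closed only in MON and NEU these shares were 6.16% and 33.3%, and for elements called in all 10 they were 1.70% and 45.1%. Both of those sets were called in CFUE and ERY by rule. Of all distal merged elements with a GATA motif 3754 were called in G1E, 1514 of them in G1E alone. Among the distal elements described here these numbers were 101 and 37. With none of PU.1, RUNX, GATA, AP-1, CEBP or CTCF they were 5332 and 1584, against 323 and 100. Loss in G1E-ER4+E2 was therefore not particular to these elements. In numbers, 751 of the elements were called in both lines, 287 in G1E alone, 358 in G1E-ER4+E2 alone and 2804 in neither.

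By motif, the distal elements with a PU.1 motif had a peak in 39.4% and 45.6% in G1E and in 30.5% and 35.4% in G1E-ER4+E2. The libraries of the lines did not overlap, with means of 42.5% ± 4.38 and 33.0% ± 3.44 (SD, n = 2), a difference of -9.51 points chosen after the values had been seen (p = 0.333 in a two-sided exact permutation test, as small as 2 against 2 allow). Called elements went from 85 to 63, with 33 called in G1E alone and 11 in G1E-ER4+E2 alone. Elements with a PU.1 motif that were called in all 10 primary populations had 54.9% and 62.6% in G1E and 71.4% and 75.8% in G1E-ER4+E2, and over all distal merged elements with the motif the shares were 7.03% and 8.35% in G1E and 5.29% and 6.11% in G1E-ER4+E2. Of the latter, called elements went from 698 to 505, with 372 in G1E alone and 179 in G1E-ER4+E2 alone, so they fell as well. The CTCF elements had 16.2% and 24.3% in G1E and 30.6% and 40.5% in G1E-ER4+E2, and went from 27 to 59 called. All distal merged elements with a CTCF motif had 11.7% and 17.6%, then 27.4% and 32.9%, so they rose as well. RUNX elements went from 95 to 85 called and GATA elements from 101 to 89. Over all distal merged elements these numbers went from 1159 to 1219 for RUNX and from 3754 to 3758 for GATA. The 1546 distal elements with none of PU.1, RUNX, GATA, AP-1, CEBP or CTCF went from 323 to 371. All distal merged elements without these motifs went from 5332 to 7756.

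**Figure D3:**
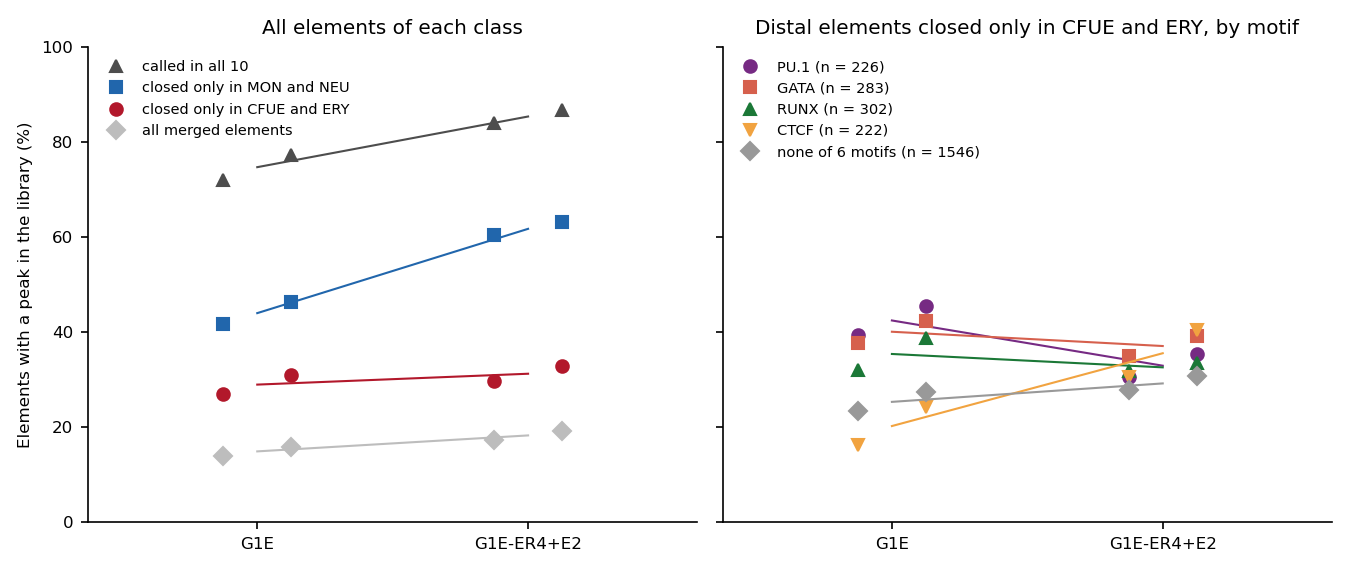
Points give the percent of elements with a peak in each cell line library, and lines join the means of the 2 libraries of each line, for 4 sets of elements (left) and for distal elements closed only in CFUE and ERY that hold a motif (right). Elements closed only in CFUE and ERY go from 27.0% and 31.0% to 29.7% and 32.8%, and those with a PU.1 motif from 39.4% and 45.6% to 30.5% and 35.4%.

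Some of the elements were neighbours along the chromosome. A run is a row of them with no other element open in the 8 populations in between. There were 2680 runs, 1816 of a single element, 527 of 2 and 337 of 3 or more, and the last held 1330 of the 4200 elements. The longest, 14 elements, lay at chr8:114971279-116734133 over 1763 kb around Maf (a bZIP factor of macrophages and lymphocytes) and its neighbours Wwox, Dynlrb2 and Cdyl2. Runs of 8 lay, among other places, around Lmo4 (chr3:143599138-144242322), upstream of Atp2b1 (chr10:98494395-98842163), around Trib1 and Fam84b (chr15:59511487-60824838) and around Spry2 and Ndfip2 (chr14:105258897-105923242). The median distance to an element called in CFUE or ERY was 15.4 kb, 1628 elements (38.8%) had one within 10 kb, and 476 (11.3%) had none within 100 kb. Neither the runs nor the distances were computed for other elements. Whether either is particular to these was therefore not tested.

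Each element was given the protein-coding gene with the nearest transcript start, which need not be the gene it acts on. There were 2883 such genes, 24.6% of the 11722 genes nearest to an element open in the 8 populations, and 300 of them had 3 or more elements. The largest counts were at Gm5426 (10 of its 11 open elements), Rapgef2 (9 of 12), Atp2b1 (8 of 10), Lmo4 (8 of 9) and Pde4d (8 of 16). Among the 25 genes with the most elements, all open elements were closed in the erythroid pair at Maf (7), Map3k5 (7), Trps1 (7), Bcas1 (6), Spry2 (6) and Trib1 (6). The same held at Tgfbr2 (5), outside the 25.

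Of the 102 elements of any kind nearest to Maf, 60 were called in CMP, 68 in GMP and 24 in MEP, and 0 in CFUE, ERY, G1E and G1E-ER4+E2. Of all merged elements, 53.6% were called in CMP, 56.3% in GMP, 37.9% in MEP, 20.8% in CFUE and 21.0% in ERY. G1E had 12.7% and G1E-ER4+E2 15.6% of them. The order from GMP over MEP to the erythroid pair is thus also that of the whole collection. Its promoter element (chr8:115707669-115708045) had percentiles of 87.3, 93.1 and 96.7 (lowest, median and highest of the 16 libraries), while that at chr8:115414174-115414584, between genes, had 35.6, 94.0 and 98.1 with both MEP libraries (35.6 and 43.2) at the bottom. Tgfbr2, a receptor of TGF-beta, was alike, with 60 of 96 elements called in GMP, 28 in MEP, 0 in CFUE, 1 in ERY and 0 in the lines. Its promoter element (chr9:116175127-116175388) ran from 71.8 to 97.8 with a median of 92.1. Around Ptprc, which encodes the leukocyte surface phosphatase CD45, 49 of 72 elements were called in GMP, 25 in MEP, 4 in CFUE, 4 in ERY and 0 in the lines. Its intronic element at chr1:138136157-138136725 was strong everywhere else, from 94.0 in MEP to 99.3 with a median of 98.4, and had no peak in any erythroid or cell line library.

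The Lmo4 elements differed from these in the lines. Lmo4 encodes a LIM adaptor protein. Of its 8 elements, the 6 nearest to its start were called in both G1E and G1E-ER4+E2. The strongest, at chr3:144205475-144205660, lay between 93.6 and 98.5 (median 96.6) in the open populations, with MEP at 96.2 and 96.3. In CFUE it had a peak in 1 library only, at percentile 14.9, yet the lines had 97.2 and 97.2 in G1E and 95.6 and 96.2 in G1E-ER4+E2.

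Lists of 324 genes in 15 groups were read for the share of their open elements closed in the erythroid pair, beside 19.5% of all. None of the 23 open elements nearest to erythroid genes was closed (upper limit of the 95% Wilson interval 14.3%), and 1 of 31 nearest to housekeeping genes was. The leukocyte-wide list had 28 of 67 (41.8%), leukocyte transcription factors 35 of 95 (36.8%), stem and progenitor genes 18 of 43 (41.9%) and GATA1-repressed genes 13 of 29 (44.8%). Monocyte and macrophage genes had 11 of 24 (45.8%), granulocyte genes 6 of 16 (37.5%), megakaryocyte genes 9 of 23 (39.1%) and genes of the cytoskeleton, adhesion and migration 37 of 100 (37.0%). Cytokine and growth factor signalling had 20 of 63 (31.7%), antigen presentation 7 of 33 (21.2%), B cell genes 6 of 12 (50%), T and NK cell genes 5 of 20 (25%) and genes of other tissues 0 of 7. The lists share genes, and the intervals of the short lists are wide. Over 1 kb from a start 32.5% of all open elements were closed. There the leukocyte-wide list had 44.4%, leukocyte factors 37.7%, stem and progenitor genes 52.4%, megakaryocyte 46.7%, granulocyte 38.5%, cytoskeleton and B cell genes 42.9%. GATA1-repressed, cytokine and antigen presentation genes had 40%. Monocyte and macrophage genes (29.4%, 5 of 17), T and NK cell genes (20%) and erythroid, housekeeping and other tissue genes (0%) lay below.

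At promoters, 856 coding genes had a closed element within 500 bp of a start, and 226 of them had another called element at a start in CFUE or ERY. For the other 630 (73.6%) no start was called in either, and 169 of these (26.8%) were called at a start in G1E, 190 (30.2%) in G1E-ER4+E2 and 151 in both. By element, 26.5% of the 1383 within 1 kb of a start were called in G1E and 29.1% in G1E-ER4+E2, near these shares. Of all merged elements, 12.7% and 15.6% were called in the lines. Of the 630, 37 are in the lists and are shown in the heat map of promoter elements (chromosome 18 left out). MEP was the lowest of the 8 types at 29 of the 37 and below the median of the other libraries at 36. Among all 4200 elements MEP was lowest at 44.9%, and the other count was not made for them. Of the 37 elements, 25 had no peak in any erythroid library, 8 had a peak in all 4 cell line libraries and 23 in none of them. Among all 4200 elements, 60.1% had no peak in any erythroid library. By calls, 751 of the 4200 were in both lines and 2804 in neither.

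**Figure D4:**
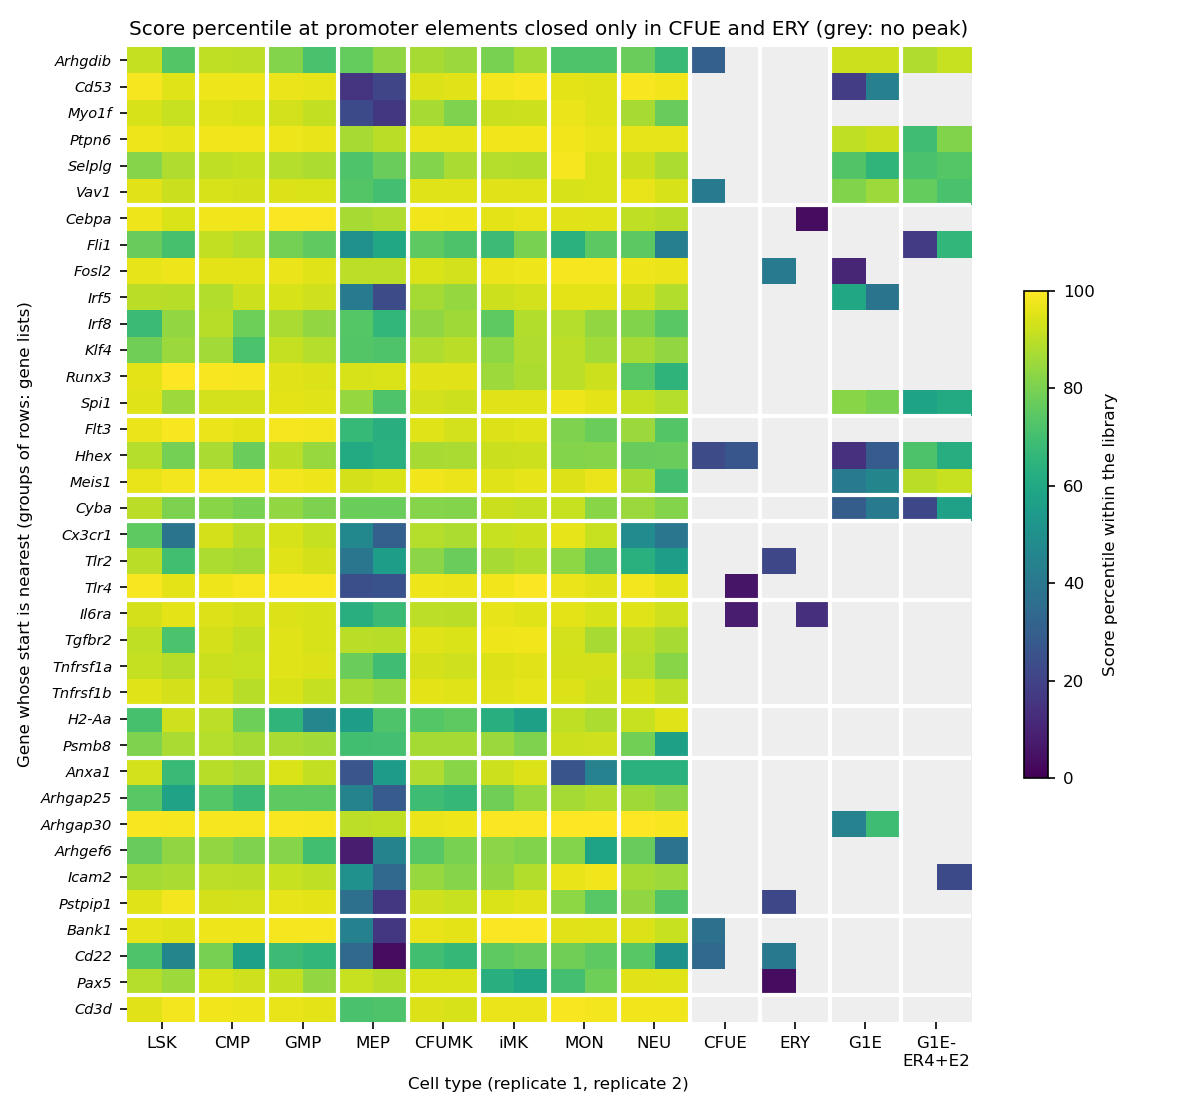
Each row is the promoter element of 1 gene and each cell 1 library, coloured by score percentile from 0 to 100, with grey for no peak; white lines divide the gene lists. The MEP columns are darker than their neighbours in most rows, the CFUE and ERY columns are nearly empty, and 8 of the 37 genes have a peak in all 4 cell line libraries.

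Among transcription factors of white blood cells, the promoter element of Spi1 (chr2:91096528-91096843), which encodes PU.1, lay at 72.4, 93.1 and 97.5 (lowest, median, highest of 16 libraries). The lowest were both MEP libraries, and no erythroid library had a peak. G1E had 82.3 and 79.8 there and G1E-ER4+E2 58.0 and 61.0, so the libraries of the lines did not overlap. Cebpa, of the granulocyte factor C/EBP alpha (chr7:35119071-35119339), lay at 86.7, 96.3 and 99.6, with both GMP libraries highest, and 1 ERY library had a peak at percentile 3.46. Irf8, a factor of monocytes and dendritic cells (chr8:120736055-120736479), lay at 66.4, 83.6 and 89.2, and Klf4, a monocyte factor (chr4:55532198-55533521), at 71.7, 86.0 and 91.1. Neither had a peak in any erythroid or cell line library. Irf5, an inflammatory factor of macrophages (chr6:29528908-29529352), had 41.6 and 23.1 in MEP around a median of 91.0, and had peaks in G1E (59.6 and 38.5) but none in G1E-ER4+E2. Fli1, an ETS factor of megakaryocytes and progenitors (chr9:32541227-32541753), lay at 43.3, 74.7 and 90.7 and had no peak in G1E and 17.7 and 66.2 in G1E-ER4+E2.

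Of the progenitor genes, Meis1, a homeobox factor of stem cells (chr11:19018509-19019129), lay at 70.3, 97.0 and 98.6, with NEU lowest and MEP at 93.6 and 94.5. In the lines it stood at 41.8 and 46.1 in G1E and at 89.8 and 91.7 in G1E-ER4+E2, and CFUE and ERY had no peak. Hhex, another homeobox gene (chr19:37433876-37434873), lay at 61.0, 83.2 and 92.5 with MEP lowest. It had 14.3 and 29.2 in G1E against 71.9 and 62.2 in G1E-ER4+E2, and weak peaks in CFUE that did not overlap (23.3 and 26.6). Flt3, a cytokine receptor of early progenitors (chr5:147400208-147400531), lay at 62.9, 94.9 and 99.0, with MEP lowest and no peak elsewhere.

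The leukocyte-wide genes included Ptpn6, the phosphatase SHP-1 (chr6:124733038-124733269), at 87.04, 96.7 and 98.0. It stayed high in the lines, with 90.6 and 91.8 in G1E and 69.2 and 80.9 in G1E-ER4+E2. Cd53, a tetraspanin of leukocytes (chr3:106790022-106790261), had MEP values of 15.5 and 21.0 around a median of 96.7, and the next library was at 94.7. It was called in G1E (18.05 and 43.7) and not in G1E-ER4+E2. Myo1f, a leukocyte myosin (chr17:33555275-33555814), had 22.6 and 16.3 in MEP around a median of 91.7, and no peak elsewhere. Arhgdib, a GDP dissociation inhibitor of blood cells (chr6:136941376-136941989), had MEP at 76.3 and 83.3, near the median of 80.7, and stood at 88.2 to 92.6 in the lines.

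Among receptor genes, Tlr4, the receptor of bacterial lipopolysaccharide (chr4:66827486-66827832), had 24.6 and 25.1 in MEP against a median of 97.4, a peak of 5.54 in CFUE replicate 2 and none in the lines. Cx3cr1, a chemokine receptor (chr9:120068043-120068546), had 46.8 and 30.6 in MEP against a median of 89.2, and LSK replicate 2 (38.4) and NEU replicate 2 (39.4) were as low. The tumor necrosis factor receptor genes had MEP at 77.6 and 69.4 at Tnfrsf1a (chr6:125349551-125349792, median 92.4) and at 86.9 and 84.6 at Tnfrsf1b (chr4:145246764-145246939, median 93.8). H2-Aa, of MHC class II (chr17:34287726-34288115), was spread from 46.5 in GMP replicate 2 to 95.05 around a median of 74.5. None of these elements of Cx3cr1, Tnfrsf1a, Tnfrsf1b and H2-Aa had a peak in any erythroid or cell line library, while elsewhere around Cx3cr1 2 elements were called in CFUE and 1 in ERY. Zyx, the focal adhesion protein zyxin (chr6:42353113-42353493), had MEP at 54.7 and 61.3 against a median of 97.2, with 81.6 and 76.6 in G1E and no peak in G1E-ER4+E2. This element lies at a start inside the gene, and another start of Zyx was called in CFUE or ERY. Of the 11 elements nearest to Zyx, 1 was called in CFUE, 1 in ERY and 5 in each line.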

How the data were processed

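ATAC-seq was run on nuclei of 12 populations with 2 libraries each, which were different groups of mice or aliquots. Per the submitters' processing notes the authors aligned reads to mm10 with Bowtie 0.12.8, used SAMtools 1.6, and called peaks in each library with HOMER. The deposited peak lists give a position and a peak score without a stated normalization, and the score was therefore turned into a percentile within its library. No read totals were used and the depth is unknown. No list of artefact regions was applied.

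Peaks were intersected and merged in Python 3.11.15 (numpy 2.4.6, pandas 2.3.3, pysam 0.24.0), and the steps were tested on simulated data. Genes and transcript starts were those of GENCODE vM21 (GRCm38). Named genes were the 25 with the most elements by nearest coding start, and list genes with an element within 500 bp of a start or with 2 or more elements, of which those with a known role are described. Elements, gene lists and motifs were chosen with earlier results of these data known. Wilson intervals were computed with scipy 1.17.1. Exact permutation and sign-flip tests ran over libraries or over types, each type being the mean of its 2 libraries. Their p-values cover only the spread between these libraries or types, which may be technical. The types are related by lineage and were read at the same elements, so they are not independent replicates. Alternatives were other overlaps, score minimums, peak numbers, distances and groups, and leaving out each library.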

Additional observations from a re-analysis of the deposited data

Results flagged for a closer look

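The median score percentile of elements closed only in CFUE and ERY, less that of elements closed only in MON and NEU, was -13.6 points in MEP and above 0 in LSK, CMP, GMP, CFUMK and iMK. Both MEP libraries lay below 0 (-14.1 and -13.1) and all 10 libraries of the other 5 types above it (4.97 to 26.5). The difference between MEP and the other types was not tested. Both sets were chosen by their CFUE and ERY calls, in opposite ways, so it is only a description.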

How the results depend on the processing

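For the lines, the only populations tested against each other, no paired analysis was possible because their title numbers (870 to 873) share none and the replicate numbers follow the order of deposition. The tests over types already compare sets of elements within the same libraries. The series of title numbers could pair the bone marrow populations other than LSK, but no test compared those populations with each other. The alternatives that left out CFUMK and iMK, or NEU, and those for the MEP and PU.1 values were chosen after seeing the data. The number of elements was 2440 with an equal number of peaks in each library and 6802 with a peak in either replicate. The percent within 1 kb of a start was 34.6 with weak peaks left out, 40.0 with equal peak numbers, 25.8 with either replicate and 26.5 at a distance of 500 bp. The change from G1E to G1E-ER4+E2 was -0.272 points with either replicate. The MEP difference from the other types was -18.0 with equal peak numbers, -23.1 with either replicate and -15.5 without CFUMK and iMK. The difference of promoter and distal elements was -0.295 with the mean score and 2.59, no longer past the threshold, without CFUMK and iMK. The cause of these changes was not tested.

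Leaving out 1 library at a time gave 3423 to 5128 elements, 30.5 to 33.4 percent within 1 kb, 0.274 to 4.30 points from G1E to G1E-ER4+E2, -27.2 to -20.1 points against elements closed only in MON and NEU in the lines and 8.30 to 12.2 against them in 6 types, -11.6 to -10.3 against elements called in all 10, 1.88 to 2.85 between promoter and distal elements, -21.1 to -15.6 for MEP and -12.6 to -6.42 for the PU.1 elements in the lines. A group left with 1 library was called from that library alone. Reading motifs in whole elements raised the shares, for example PU.1 to 13.8%, since longer stretches were searched. Read depth was unknown, which limits any statement on absent peaks.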
